A study of Mus musculus with 9 samples.

Results

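A set of 47 genes for focal adhesions, the actin and myosin cytoskeleton and targets of serum response factor (SRF) was followed in mouse sciatic nerve. The entries were taken by name from a table of 25965 gene entries, and were arranged in 3 classes: 20 adhesion genes, 17 actin and myosin genes and 10 further SRF targets. The set, and the gene lists placed beside it, were chosen with earlier results of these data known. How many of them lay below 0, beside the share of all entries, is therefore a description and not a test. One of the adhesion entries, Ap3m1, belongs to no adhesion and was kept because its exons overlap those of the vinculin gene Vcl on the opposite strand. Total RNA was sequenced from nerves of C57BL/6 mice of 3 genotypes, control littermates, PINCH1 mutants and PINCH2 mutants. The nerves were stripped of the epineurium, and every library came from 4 pooled nerves, taken from 1 male and 1 female, with 3 such pools per genotype. The age label reads postnatal day 15, whereas the protocol text puts it at postnatal day 14. For the mutants, the alleles and any Cre or promoter behind them are not stated in the labels used here.

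Focal adhesions are the sites where integrins in the cell membrane bind extracellular matrix outside and actin filaments inside. Talin and kindlin switch integrins on, and vinculin, paxillin, tensins and alpha-actinins join them to actin. PINCH1 and PINCH2, encoded by Lims1 and Lims2, are LIM-domain adaptors that bind integrin-linked kinase at these sites. In Schwann cells, integrins of the beta-1 family serve as laminin receptors and are needed for sorting axons before myelination. SRF is a transcription factor whose coactivators of the MRTF family are held back by monomeric actin, so that actin assembly and the transcription of actin genes are linked.

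The libraries held 957828 to 1204964 counts, and between 9674 and 11240 entries were detected in each. The targeted genes were near the lower limit of the table. Lims1 had 3 to 7 counts in control nerves, 0 to 3 in the PINCH1 mutants and 0 to 9 in the PINCH2 mutants, and Lims2 had 1 to 9, 1 to 5 and 1 to 5. Neither could show whether its gene was lost. Markers of myelinating Schwann cells were abundant, with all 9 of them tested and a summed level of 14400 to 16600 CPM, counts scaled to a common library total in the controls. Entries whose exons overlap exons of a gene on the opposite strand, called the partner here, were 25.3% of all entries and carried 89.8% of all counts. Because the strand setting of the counting is not given, the counts of such an entry and of its partner cannot be told apart. Whether the counts of entries without a partner, such as Actb and Pxn, stem from the strand of the named gene was not tested.

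Of the 47 entries, 25 passed the filter on low counts and were tested: 11 of the adhesion entries, 10 of the actin and myosin entries and 4 of the SRF targets. Some members were counted far below the gene on the opposite strand. Vcl (chromosome 14, 20929433 to 21033673, plus strand, GRCm38) and Ap3m1 (chromosome 14, 21031442 to 21052508, minus strand), which encodes a subunit of the AP-3 vesicle coat, run towards each other and share 2090 bp at their 3′ ends, of which 144 bp are coding in Vcl. Vcl had 48, 40 and 57 counts in control nerves, 60, 70 and 78 in PINCH1 mutant nerves and 41, 61 and 99 in PINCH2 mutant nerves. Ap3m1 had 4684, 5422 and 4723 counts in control nerves, 4897, 5496 and 5514 in PINCH1 mutant nerves and 4040, 5239 and 3832 in PINCH2 mutant nerves. Every library thus held far more counts under the coat subunit than under vinculin. The alpha-actinin gene Actn4 shares 316 bp with Capn12, a calpain gene, and had 7 to 23 counts per library where Capn12 had 1376 to 2274. The talin gene Tln1 shares 360 bp at its 5′ end with Creb3, a transcription factor gene, and both were counted at similar levels, 27 to 75 and 72 to 105. In the other direction, the cofilin gene Cfl1 had 26 to 81 counts and its partner Snx32, a sorting nexin gene, 0 to 1. Tagln overlaps Gm48529 over 62.4% of its exon length and also the last 108 bp of the protease gene Pcsk7, which had 0 to 16 counts. In all, 12 of the 47 members had a partner and 35 had none. Of the latter, 15 also had no opposite-strand gene within 5000 bp, among them Pxn, Actb, Kank2, Myh9, Myl9, Tpm1, Tpm3 and Tns3.

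**Figure D1:**
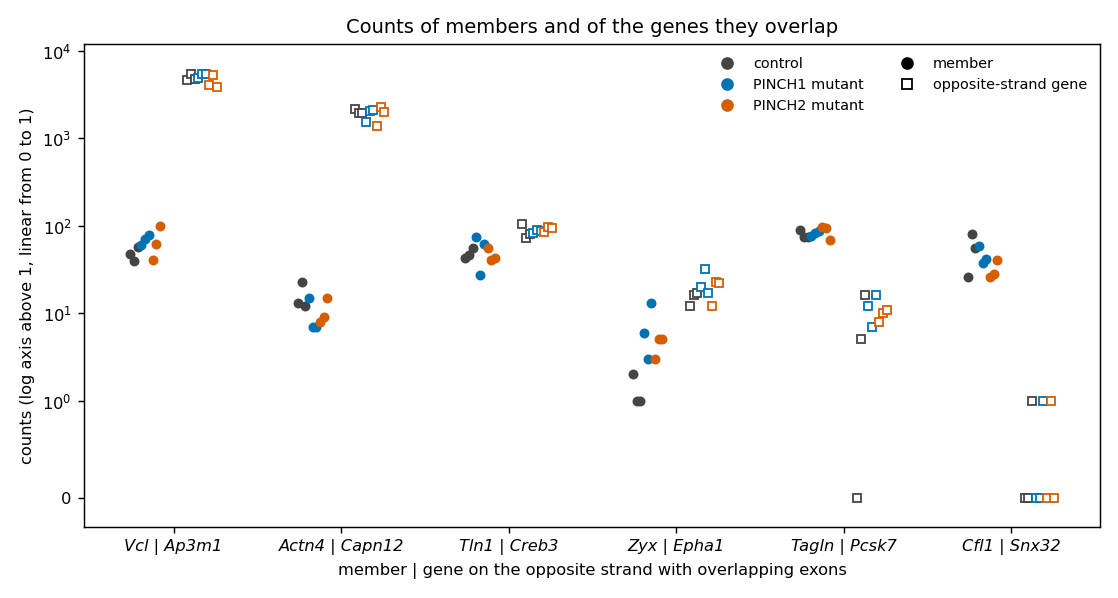
Counts (vertical axis, logarithmic above 1) of 6 members, filled circles, and of the opposite-strand genes whose exons they overlap, open squares, in each of the 9 libraries, coloured by genotype. Ap3m1 and Capn12 lie far above Vcl and Actn4, whereas Cfl1 lies above Snx32, which had 0 to 1 counts.

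SRF binds a 10-base element, the CArG box, made of CC, 6 bases that are A or T, and GG. The box reads as a box on both strands, so 1 search covers both. RefSeq promoter windows of GRCm38.p6, from 250 bases before to 50 bases after the start of transcription, were matched by symbol to 39 of the 47 genes. The other 8, Tln2, Pxn, Ptk2, Tgfb1i1, Actb, Actg2, Tagln and Myh11, had no window and were not searched. Of the 39 genes, 9 (23.1%) held a box, against 1.81% of the 27025 genes in the promoter table. By class they were 2 of 16 adhesion genes, 3 of 13 actin and myosin genes and 4 of 10 SRF targets. Since part of the set was named for regulation by SRF, this share describes the set and was not tested. The windows of the 5 tested members with a box and of Srf itself, whose product binds this element, are printed here because the expression values of these members are compared further on. Each is given from its own strand with up to 40 bases on either side of the box, and capitals mark the box.
Actg1, chr11:120348536-120348625, minus strand: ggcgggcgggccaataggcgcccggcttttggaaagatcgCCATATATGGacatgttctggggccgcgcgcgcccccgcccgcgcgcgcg
Cnn2, chr10:79988504-79988593, plus strand: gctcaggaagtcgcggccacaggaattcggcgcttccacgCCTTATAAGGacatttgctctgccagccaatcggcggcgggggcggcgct
Myl9, chr2:156775263-156775352, plus strand: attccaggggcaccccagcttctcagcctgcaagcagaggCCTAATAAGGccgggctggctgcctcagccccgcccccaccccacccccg
Fermt2, chr14:45530220-45530309, minus strand: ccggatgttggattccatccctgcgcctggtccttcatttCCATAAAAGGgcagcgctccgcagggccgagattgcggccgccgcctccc
Vcl, chr14:20929148-20929220, plus strand: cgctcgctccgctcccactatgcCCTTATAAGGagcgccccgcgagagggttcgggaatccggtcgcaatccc
Srf, chr17:46556175-46556284, minus strand: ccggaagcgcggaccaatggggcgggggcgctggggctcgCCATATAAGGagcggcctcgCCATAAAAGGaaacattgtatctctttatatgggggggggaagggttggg
The box began 90 bases before the start of transcription in Actg1, 56 in Cnn2, 161 in Myl9, 204 in Fermt2 and 227 in Vcl. Srf held 2 boxes, 82 and 62 bases before its start. Cnn2 and Vcl carried the same 10 letters. The other members with a box, Fhl1, Fhl2 and Filip1l, did not pass the filter on low counts.

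Levels of different genes were compared as TMM-scaled CPM per kilobase of exon in the controls, where TMM is a scaling factor that makes the bulk of entries equal between libraries. Ap3m1 stood far above the rest at 674 ± 64.2 (SD, n = 3). Among the others the highest were Tagln, which encodes the smooth muscle actin-binding protein transgelin (38.4 ± 7.32), the cytoplasmic beta-actin gene Actb (32.3 ± 4.41), the integrin beta-1 gene Itgb1 (29.7 ± 8.42) and the cytoplasmic gamma-actin gene Actg1 (27.1 ± 15.4). Their spreads overlapped, so these 4 had no clear order. Next came Cfl1 at 17.9 ± 8.71, the myosin light chain gene Myl9 at 17.2 ± 7.89, the calponin gene Cnn3 at 16.4 ± 2.89 and the tropomyosin gene Tpm4 at 15.3 ± 4.93 CPM per kilobase. The paxillin gene Pxn stood at 11.2 ± 4.48, and the remaining 15 tested members were at or below the 8.27 ± 3.22 of Cnn2. The lowest were Itgav, the integrin alpha-V gene, at 1.14 ± 0.939 and the caldesmon gene Cald1 at 1.02 ± 0.55. Ap3m1, Tagln, Cfl1, Cnn3, Tpm4 and Itgav have a partner, and their counts cannot be told apart from those of the partner. The order is thus one of entries, and may not be that of the named genes. Actins, tropomyosins and cofilin have close paralogs and processed pseudogenes, and how reads that fit several copies were counted is not stated in the labels used here, so their values are uncertain in this respect.

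PINCH1 mutants were first set against controls, to ask which of these genes differ in count when PINCH1 is mutated. Actin and myosin entries lay mostly lower in the mutants. Of the 10 tested, 9 were below 0, with a median log2 fold change of -0.68. Of all 4738 tested entries, 52.2% were below 0, with a median of -0.02. In the class, 7 tested entries had no partner, and all 7 were below 0 (median -0.725). Of all tested entries without a partner, 65.0% were below 0 (median -0.19). In RNA from whole nerve, fewer cells of a type and less RNA per cell cannot be told apart. The 10 adhesion entries other than Ap3m1 were divided, 6 below 0 and 4 above, with a median of -0.11. None of the 25 members passed an adjusted p of 0.05 with the edgeR quasi-likelihood test, which called 0.0633% of all tested entries, and 4 members had an unadjusted p under 0.05, against 6.37% of all entries. DESeq2 and limma-voom also called 0 members. After scaling, the values of 6 of the 25 tested members did not overlap between the groups, 5 lower and 1 higher, against 13.7% of all entries (7.49% lower and 6.16% higher).

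Among the actin genes, Actb (chromosome 5, 142903115 to 142906754, minus strand) had 72, 104 and 97 counts in control nerves and 58, 57 and 62 in PINCH1 mutant nerves. All 3 mutant libraries lay below all 3 controls. On the CPM scale this was 56.4 ± 7.16 against 86.4 ± 11.8 (SD, n = 3), a log2 fold change of -0.62 (SE 0.26, 95% interval -1.16 to -0.08, edgeR adjusted p = 0.689). Actg1 (chromosome 11, 120345690 to 120348542, minus strand) had 24, 101 and 107 counts in control nerves and 23, 21 and 101 in PINCH1 mutant nerves. Control replicate 1 and PINCH1 mutant replicates 1 and 2 were low and the others high, so the genotypes overlapped, and the log2 fold change of -0.72 had a wide interval (-2.17 to 0.72).

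Calponins bind actin and restrain actomyosin contraction. Cnn3 (chromosome 3, 121426541 to 121458205, plus strand) had 39, 61 and 58 counts in control nerves and 34, 20 and 32 in PINCH1 mutant nerves. Its groups did not overlap, and its log2 fold change of -0.89 (SE 0.32, edgeR adjusted p = 0.58) had the smallest p of the members in this comparison. Its 5′ end overlaps Gm42928 over 538 bp. Cnn2, another calponin gene, had the largest fold change, -1.30 (SE 0.59), with 1 count in PINCH1 mutant replicate 2, 12 and 14 in the other 2 mutant libraries and 12 to 29 in the controls.

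Tropomyosins run along actin filaments and set which proteins bind them. Tpm3 (chromosome 3, 90072649 to 90100902, plus strand) had 30, 26 and 40 counts in control nerves and 22, 13 and 28 in PINCH1 mutant nerves, and did not overlap after scaling (log2 fold change -0.64, SE 0.35). Tpm1 stood at -0.92 (SE 0.66) and Tpm4 at -0.03 (SE 0.36). The 95% intervals of the 3 tropomyosin entries overlapped, and a difference in size between them was not tested. Of the myosins, the nonmuscle heavy chain gene Myh9 was at -0.52 (SE 0.41) and Myl9 at -0.79 (SE 0.53). Tagln had 90, 74 and 74 counts in control nerves and 76, 82 and 86 in PINCH1 mutant nerves, and was the 1 entry of the class not below 0, at 0.03 (SE 0.25, 95% interval -0.48 to 0.54).

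**Figure D2:**
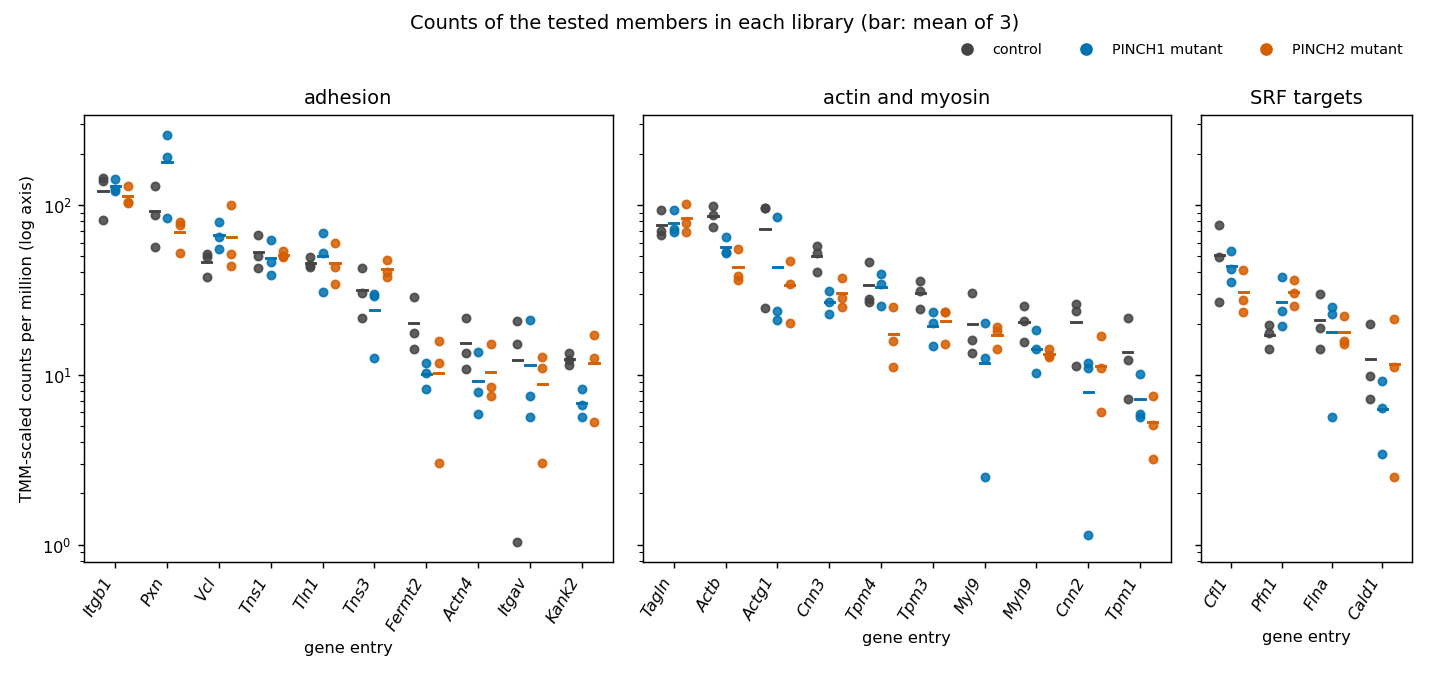
TMM-scaled CPM (logarithmic vertical axis) of the tested members other than Ap3m1, with 1 point per library, coloured by genotype, and a bar at the mean of 3 libraries. The 3 control points of Actb and Cnn3 lie above the points of both mutants, the Actg1 points are split within genotypes, and 2 of the 3 PINCH1 mutant points of Pxn lie above all others of that gene.

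Of the adhesion genes, paxillin, a scaffold for signalling proteins, stood out in size. Pxn (chromosome 5, 115506676 to 115555987, plus strand) had 55, 93 and 145 counts in control nerves and 282, 74 and 230 in PINCH1 mutant nerves. PINCH1 mutant replicates 1 and 3 exceeded every control, and replicate 2 lay within the control range. The log2 fold change was 0.96 (SE 0.38, 95% interval 0.14 to 1.77, edgeR adjusted p = 0.656). With looser filters on low counts the entry passed with edgeR, at adjusted p = 0.0438 with no filter and 0.038 with at least 1 CPM in at least 3 libraries. The log2 fold change was hardly altered there, 0.975 and 0.961, whereas the SE was smaller, 0.24 in both. Pxn passed in no other setting of this comparison. Pxn has no partner, and no opposite-strand gene lies within 5000 bp of it.

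Of the tested members, Vcl was the 1 whose PINCH1 mutant libraries all lay above the controls, with a log2 fold change of 0.52 (SE 0.31, edgeR adjusted p = 0.804), while Ap3m1 stood at 0.11 (SE 0.15). The kindlin gene Fermt2, an activator of integrins, lay the other way. Fermt2 (chromosome 14, 45458792 to 45530118, minus strand) had 17, 15 and 32 counts in control nerves and 9, 9 and 14 in PINCH1 mutant nerves, without overlap after scaling (log2 fold change -0.997, SE 0.52, edgeR adjusted p = 0.778). Kank2, which encodes a talin-binding protein at the rim of adhesions, had 11, 13 and 15 counts against 9, 5 and 8, also without overlap (-0.83, SE 0.59), and 5, 15 and 17 in the PINCH2 mutants. The receptor itself was close to the control level. Itgb1 (chromosome 8, 128685654 to 128733200, plus strand) had 79, 146 and 161 counts in control nerves and 156, 106 and 148 in PINCH1 mutant nerves, with a log2 fold change of 0.09 (SE 0.22) and an interval of -0.38 to 0.55. Tns1, a tensin gene, had 41, 53 and 74 counts against 68, 34 and 55 (-0.11, SE 0.29). Tln1 (0.15, SE 0.32), Itgav (-0.11, SE 0.72), Tns3 (-0.38, SE 0.37) and Actn4 (-0.73, SE 0.54) completed the class.

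Of the further SRF targets, 3 of 4 were below 0. The profilin gene Pfn1, whose product loads actin monomers onto growing filaments, on chromosome 11 (70651850 to 70654644, minus strand), was the exception, with 17, 15 and 22 counts in control nerves, 26, 17 and 45 in PINCH1 mutant nerves and a log2 fold change of 0.66 (SE 0.37). Cfl1, which encodes the filament-severing protein cofilin, had 26, 81 and 55 counts against 59, 37 and 42 (-0.23, SE 0.36). The filamin gene Flna had 29, 15 and 21 against 25, 5 and 30 (-0.19, SE 0.46), and Cald1 had 7, 21 and 11 against 7, 3 and 11 (-0.92, SE 0.70). The groups overlapped for each of these 4. Of the 5 tested members with a CArG box in the printed windows, Cnn2, Fermt2, Myl9 and Actg1 were below 0 and Vcl was above. Over all tested entries 52.2% were below 0, and of those without a partner 65.0%. Actb, Tagln and Pxn had no window, so they are not in this count.

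**Figure D3:**
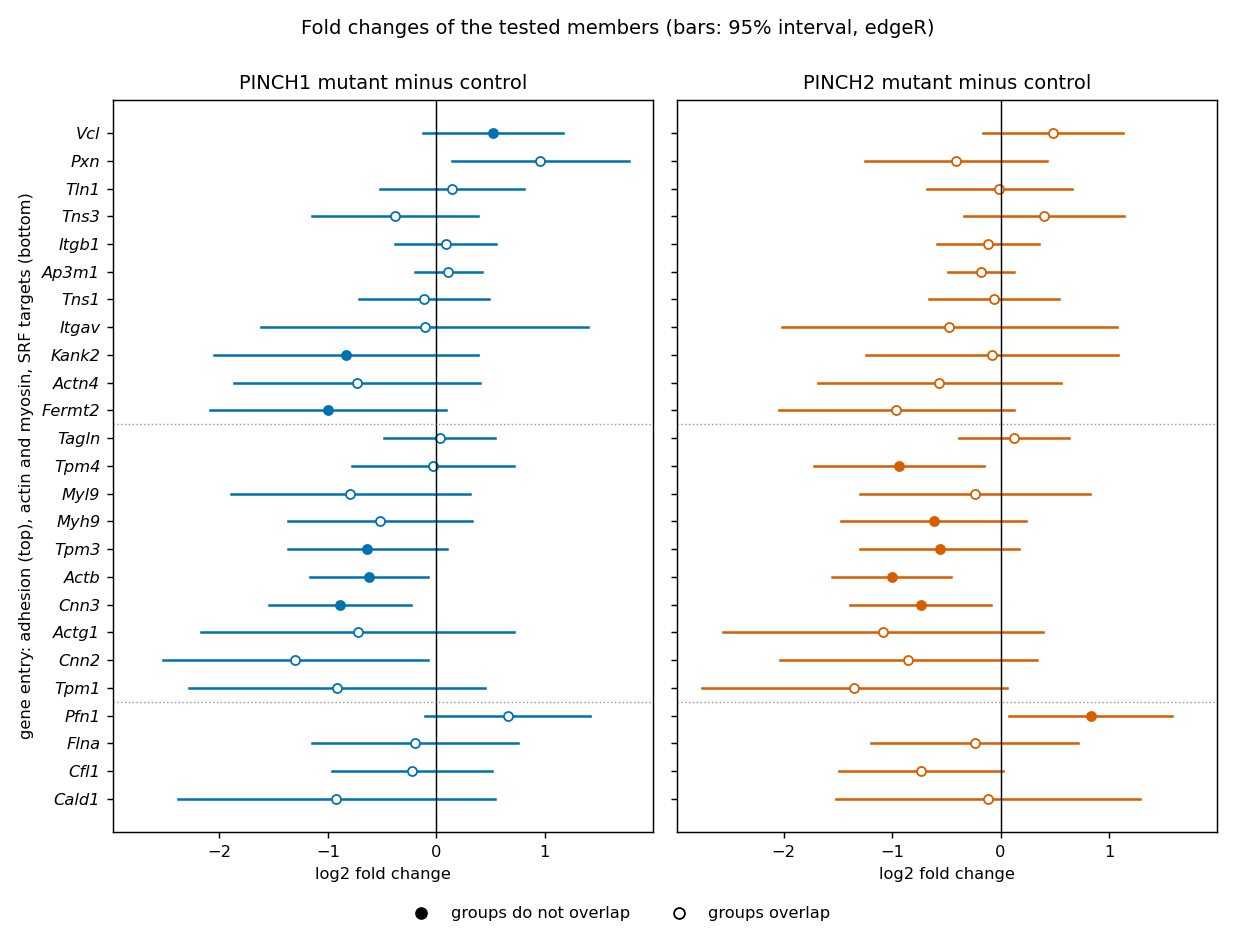
Log2 fold changes (horizontal axis) of the 25 tested members in PINCH1 mutants (left) and PINCH2 mutants (right) against the same controls, with 95% intervals from edgeR, ordered within each class by the mean of both mutants. Filled points mark members whose libraries did not overlap between the groups. In the actin and myosin class 9 of 10 points lie below 0 on each side, and no member passed the adjusted p threshold.

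PINCH2 mutants were then set against the same 3 control libraries. Again 9 of the 10 actin and myosin entries lay below 0, with a median log2 fold change of -0.79. Of all tested entries, 49.3% were below 0, and the median was 0.00. The 7 tested entries of the class without a partner were all below 0 (median -0.85). Of all tested entries without a partner, 61.0% were below 0 (median -0.13). Of the 10 adhesion entries other than Ap3m1, 8 were below 0, with a median of -0.10. No member passed with edgeR, which called 0.0211% of all entries, or with DESeq2 or limma-voom. An unadjusted p under 0.05 was found for 4 members, against 4.26% of all entries. The values of 6 of the 25 tested members did not overlap, 5 lower and 1 higher, against 9.05% of all entries (4.81% lower and 4.24% higher).

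Actb had 36, 43 and 55 counts in the PINCH2 mutants, below every control library. At 43.1 ± 10.6 CPM it stood at 0.498 of the control level, with a log2 fold change of -1.01 (SE 0.27, 95% interval -1.56 to -0.45), an unadjusted p of 0.00106 and an edgeR adjusted p of 0.999. Actg1 had 19, 56 and 34 counts (-1.08, SE 0.65), and PINCH2 mutant replicate 2 exceeded control replicate 1. Cnn3 had 35, 30 and 28 counts and did not overlap the controls after scaling (-0.74, SE 0.31, edgeR adjusted p = 0.999). Cnn2 was at -0.85 (SE 0.57).

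All 3 tropomyosin entries were below 0 in the PINCH2 mutants. Tpm4 (chromosome 8, 72134975 to 72153142, plus strand) had 27, 49 and 30 counts in control nerves, 28, 30 and 47 in PINCH1 mutant nerves and 15, 30 and 11 in PINCH2 mutant nerves. Its PINCH2 libraries lay below the controls after scaling (-0.94, SE 0.38). Tpm3, with 22, 28 and 15 counts, was at -0.56 (SE 0.35) and also did not overlap, and Tpm1 was at -1.35 (SE 0.68) on 3 to 9 counts per PINCH2 library. Myh9 had 15, 27 and 23 counts in control nerves and 12, 17 and 13 in PINCH2 mutant nerves, without overlap after scaling (-0.62, SE 0.41), and Myl9 was at -0.24 (SE 0.51). Tagln had 96, 94 and 69 counts and stood at 0.12 (SE 0.24, 95% interval -0.39 to 0.63).

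Of the 11 tested adhesion entries, 0 separated PINCH2 mutants from controls. Vcl was at 0.48 (SE 0.31), with 2 of its 3 libraries within the control range after scaling. Fermt2 had 11, 19 and 3 counts and a log2 fold change of -0.96 (SE 0.52), the 3 counts being those of PINCH2 mutant replicate 3. Pxn had 72, 62 and 79 counts (-0.41, SE 0.39). Itgb1 had 122, 125 and 102 counts, all within the control range, with a log2 fold change of -0.12 (SE 0.22) and an interval of -0.58 to 0.35. Tns1 had 47, 59 and 53 counts (-0.06, SE 0.29), and Ap3m1 was at -0.18 (SE 0.15). Tns3 lay above 0 (0.40, SE 0.36), and Tln1 (-0.01, SE 0.32), Itgav (-0.47, SE 0.74), Actn4 (-0.56, SE 0.54) and Kank2 (-0.08, SE 0.56) below.

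Of the tested members, Pfn1 was the 1 whose PINCH2 libraries all lay above the controls, with 24, 36 and 36 counts and a log2 fold change of 0.83 (SE 0.36, 95% interval 0.07 to 1.58, edgeR adjusted p = 0.999). The Pfn1 and Actb entries lay on opposite sides of the control level, but neither passed the threshold and the contrast between them was not tested. Cfl1 had 26, 28 and 41 counts (-0.73, SE 0.36), Flna 21, 19 and 15 (-0.24, SE 0.46) and Cald1 20, 3 and 11 (-0.12, SE 0.67).

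PINCH1 and PINCH2 mutants were also compared directly. The members were evenly divided, 12 of 25 lower and 13 higher in PINCH1 mutants, and the actin and myosin class was split 5 to 5 with a median of 0.01. With edgeR 0 members passed, against 0.0844% of all entries. With limma-voom it was also 0, and with DESeq2 it was 1, Pxn. An unadjusted p under 0.05 was found for 3 members, against 6.35% of all entries. The groups did not overlap for 4 of the 25 tested members, 1 lower and 3 higher, where 5.57% of all entries were lower and 5.42% higher without overlap. Pxn was the first of these, at 178 ± 87.5 CPM in PINCH1 against 69.2 ± 15.1 in PINCH2 mutants (SD, n = 3), a log2 difference of 1.37 (SE 0.38, 95% interval 0.54 to 2.20, edgeR adjusted p = 0.402). It passed with DESeq2 (adjusted p = 0.0493), with no filter (adjusted p = 6.02e-05), with at least 1 CPM in at least 3 libraries (adjusted p = 7.71e-05) and, with edgeR, without PINCH1 mutant replicate 2 (1.71, adjusted p = 0.00625). With the 2 looser filters the log2 difference was hardly altered, 1.36 and 1.34, whereas the SE was smaller, 0.24 in both. Tpm4 was likewise higher in PINCH1 mutants, by 0.91 on the log2 scale (SE 0.38, edgeR adjusted p = 0.779) and Tns3, another tensin gene, lower by 0.78 (-0.78, SE 0.36, adjusted p = 0.779). Tns3 had 32, 11 and 36 counts in the PINCH1 and 38, 45 and 47 in the PINCH2 mutants. Ap3m1 was the fourth, at 0.29 (SE 0.15). For Actb the difference was 0.39 (SE 0.27), with an interval from -0.17 to 0.95 that includes 0.

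Taking the mean of both mutants against the controls, 19 of the 25 members were below 0, with a median of -0.48, where 51.2% of all entries were. The actin and myosin class had 9 of 10 below 0 (median -0.70). Of tested entries without a partner, 65.2% were below 0 (median -0.18). This comparison is the mean of those of each mutant with the same controls. Its direction and overlap counts thus follow from theirs and add no separate evidence. With edgeR 0 members passed, against 0.0211% of all entries, and DESeq2 and limma-voom called 0. An unadjusted p under 0.05 was found for 5 members, Actb, Cnn3, Pfn1, Fermt2 and Cnn2, against 5.28% of all entries. The libraries did not overlap for 3 of the 25 tested members, all of them lower, against 3.14% of all entries (2.09% lower and 1.06% higher). These were Actb (-0.81, SE 0.22, unadjusted p = 0.0014, edgeR adjusted p = 0.672), Cnn3 (-0.81, SE 0.27, adjusted p = 0.678) and Tpm3 (-0.60, SE 0.30, adjusted p = 0.882), each lower in 6 of 6 mutant libraries. The median of the members ranged from -0.60 without control replicate 1 to -0.18 without control replicate 2.

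The members also differed between libraries of one genotype. Summed over its 17 entries, the actin and myosin class held 367, 466 and 487 CPM in control nerves, 296, 300 and 348 in PINCH1 mutant nerves and 307, 293 and 260 in PINCH2 mutant nerves. Controls 2 and 3 were the highest and control 1 lay between them and the mutants. Of the 25 tested members, 8 had their highest value in control replicate 3 and 6 in control replicate 2, where 13.0% and 10.5% of all tested entries had theirs, and 8 had their lowest in PINCH1 mutant replicate 2, where 16.8% of all tested entries had theirs. PINCH1 mutant replicate 2 also had the smallest share of counts on entries without a partner, 8.18%, and control replicate 3 the largest, 12.3%. Entries without a partner lay lower in the mutants as a whole, with medians of -0.19 in PINCH1 and -0.13 in PINCH2 mutants and 65.0% and 61.0% of 1893 entries below 0. Of the 16 tested members without a partner 13 and 14 were below 0, and of the 9 with one 5 and 7. When entries with and without a partner were scaled separately, the actin and myosin medians were -0.48 and -0.75, with 10 and 9 of 10 entries below 0. Leaving out each library in turn gave 8 to 10 of the 10 below 0 in both comparisons with the controls. The median of all 25 members in PINCH1 mutants ranged from -0.62 without control replicate 1 to -0.20 without PINCH1 mutant replicate 2, and in PINCH2 mutants from -0.55 without control replicate 1 to -0.25 without PINCH2 mutant replicate 2.

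**Figure D4:**
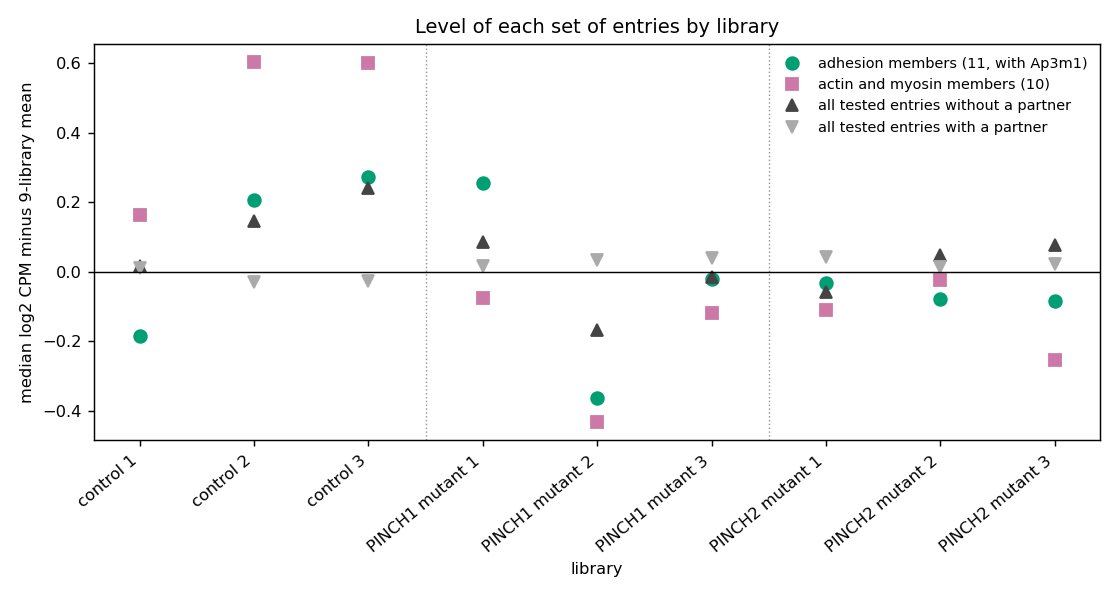
Median of log2 CPM minus the mean over all 9 libraries (vertical axis) for 4 sets of entries in each library. The actin and myosin members reach 0.60 in controls 2 and 3, lie at 0.16 in control 1 and are below 0 in every mutant library, and PINCH1 mutant replicate 2 is the lowest library for them, for the adhesion members and for all entries without a partner.

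Markers of other cells were set beside these values. The 9 markers of myelinating Schwann cells summed to 11200 to 12600 CPM in the PINCH1 mutants and 10900 to 12900 in the PINCH2 mutants, below the controls in every library, so they moved in the same direction as the actin and myosin class. Their part in the result was not tested. The 12 markers of smooth muscle and pericytes, of which 3 were tested, summed to 58.9 to 75.4 CPM in control nerves, 51.1 to 88.5 in the PINCH1 mutants and 77.3 to 84.4 in the PINCH2 mutants. Of these, Acta2, Myh11, Cnn1 and Des had at most 7 counts in any library. Tagln, which is not on the list, stood at 76.4 ± 14.5, 78.1 ± 13.1 and 83.2 ± 16.6 CPM (SD, n = 3) in the 3 genotypes. Of 14 skeletal muscle markers 5 had 0 counts in every library, among them Acta1, and the list summed to 11.3 to 38.2 CPM. The 7 fibroblast markers ranged from 674 to 1350 CPM in the controls, 849 to 913 in the PINCH1 mutants and 563 to 920 in the PINCH2 mutants. The macrophage list rested on 1 entry, Csf1r, with a mean of 579 CPM over the 9 libraries, while C1qa, the next highest, had 3.16 CPM and Aif1 had 0. The endothelial, perineurial and adipocyte lists were each under 60 CPM in every library, with Lypd2, Adipoq, Plin1 and Cfd at 0 throughout.

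Other genes of the same pathways gave 0 entries past the threshold in any of the 4 comparisons, with the shares of all entries called as given above. Of 19 genes for actin assembly, among them the Arp2/3 complex that branches filaments, 14 were below 0 in PINCH1 mutants (median -0.26) and 12 in PINCH2 mutants (median -0.20), and values of the other lists follow in that order. The 2 most abundant of these stayed near the controls, Cap1 at 0.18 (SE 0.16) and 0.11 (SE 0.16) and Arpc1b at 0.12 (SE 0.19) and 0.04 (SE 0.19). Less abundant ones did not all do so, and the 19 ran from -1.38 to 0.88 and from -1.36 to 0.90. Of the 19, 2 and 3 lay below the controls without overlap and 0 above, where 7.49% and 4.81% of all entries lay below. Of 5 tested adhesion scaffold genes outside the set, 5 and 5 were below 0 (medians -0.47 and -0.53), with Fermt3 at -0.30 (SE 0.33) and -0.03 (SE 0.33) and Csrp1 at -0.66 (SE 0.41) and -0.53 (SE 0.41). Of 6 other integrin subunits, 5 and 4 were below 0, and the laminin receptor gene Itga6 was at -0.29 (SE 0.19) and -0.52 (SE 0.19), and Itga4 at -0.23 (SE 0.27) and -0.33 (SE 0.27). In the complex that PINCH proteins join, Ilk was at 0.11 (SE 0.18) and 0.23 (SE 0.18), Parva, a parvin gene, at -0.13 (SE 0.33) and -0.26 (SE 0.33), and 2 of 3 tested entries were below 0 in each mutant. Of the cofactors of SRF only Elk3 was tested (-0.93, SE 0.73, and -0.80, SE 0.73), and of 3 immediate early targets 2 were below 0 in each mutant, with Egr2, also a regulator of myelination, at -0.81 (SE 0.46) and -0.43 (SE 0.45) and Mcl1 at -0.55 (SE 0.46) and -0.48 (SE 0.46).

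The remaining 22 members did not pass the filter, 9 adhesion, 7 actin and myosin and 6 SRF target entries, and they are described by their counts. The focal adhesion kinase gene Ptk2 had 1 to 13 counts per library. The zyxin gene Zyx, whose 3′ part overlaps the ephrin receptor gene Epha1, had 2, 1 and 1 counts in control nerves, 6, 3 and 13 in PINCH1 mutant nerves and 3, 5 and 5 in PINCH2 mutant nerves. It lay above every control in 6 of 6 mutant libraries, and Epha1 had 12, 16 and 17 counts in control nerves, 20, 32 and 17 in PINCH1 mutant nerves and 12, 23 and 22 in PINCH2 mutant nerves. Tln2 had 0 to 7, Bcar1 0 to 5, Actn1 0 to 3, Nck2 0 to 5, Tgfb1i1 0 to 1 and Pdlim7 0 to 11 counts. Fermt1, a kindlin of epithelia, had 0 counts in every library. For a single library taken alone, this allows a level of up to 3 counts, or 2.49 to 3.13 CPM, from counting error only. Of the actin and myosin class, Acta2, Cnn1 and Myh11 had 0 to 7 counts, Actg2 and Tagln2 0 to 5 and Tpm2 0 to 3. The nonmuscle myosin gene Myh10 had 8, 4 and 14 counts in control nerves, 10, 6 and 1 in PINCH1 mutant nerves and 2, 4 and 3 in PINCH2 mutant nerves, the last group lying below the controls after scaling. Myh11 was higher in all 3 PINCH1 mutant libraries than in any PINCH2 mutant library. Zyx, Myh10 and Myh11 were singled out after their values were seen, as the members below the filter whose groups did not overlap. The share of all entries below the filter without overlap was not counted. At these low counts the 3 are given as a description only. The SRF gene itself had 1 to 5 counts, and Lmod1, a filament nucleator gene, had 7, 3 and 10 in control nerves, 16, 1 and 6 in PINCH1 mutant nerves and 5, 3 and 3 in PINCH2 mutant nerves. Fhl1 and Filip1l reached 5 counts at most, Fhl2 3 and Des 2. With no filter edgeR tested these members other than Fermt1, and Pxn was the 1 gene of the set that it called in any of the 4 comparisons.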

How the data were processed

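The authors deposited 1 table of whole-number read counts per gene entry, with no scaling for depth or length. Per the submitters' processing notes, the tools included HISAT2 2.0.5, cutadapt 1.9.1 and Trim Galore 0.4.2, and the build was GRCm38. The counting tool, its strand setting and the annotation release were not stated there. Every column of the table belonged to one of the 9 libraries or to the annotation, and no entry lacked a name. The totals limit precision at low levels. Odd numbers made up 83.6% of values between 1 and 4 and 50.1% of values above 50.

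Entries were matched to GENCODE M21 (GRCm38) by gene identifier (96.4%) or symbol, and opposite-strand exon overlaps were found with bedtools 2.31.1. For 571 entries of no annotated gene, the whole span was used. The edgeR 4.0.16 quasi-likelihood test (R 4.3.3, TMM, filterByExpr, robust, 9 libraries, genotype only) was fitted to 4738 entries and checked on simulated data. P-values were adjusted by Benjamini-Hochberg over all of them. Each weighs a difference between genotypes against the spread between pools, which was estimated over the 9 libraries together. SE is the absolute log2 fold change over the square root of F. The members and lists were chosen with earlier results of these data known, and every tested member is named, with values per library for those without overlap or with the 5 highest levels of a class, and the 2 most abundant genes of each pathway list. The results of 1 list are not reported here. Alternatives were RLE, upper-quartile and separate scaling, DESeq2 1.42.0, limma-voom 3.58.1, no filter, a minimum of 1 CPM in 3 or more libraries, a fit of only the groups compared, the replicate block, and each library left out.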

Additional observations from a re-analysis of the deposited data

How the results depend on the processing

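No member passed with edgeR in any of the 4 comparisons, and the same held for both comparisons of a single mutant with the controls under RLE, upper-quartile and separate scaling, DESeq2, limma-voom, the fit of only the groups compared and each library left out. Pxn was the exception elsewhere, with 1 member called without a filter and at 1 CPM in at least 3 libraries, in PINCH1 mutants against controls and against PINCH2 mutants, and 1 with DESeq2 in the latter. Over all tested entries, edgeR called 1 higher and 2 lower in PINCH1 mutants, 0 and 1 in PINCH2 mutants, 2 and 2 between the mutants and 1 and 0 in both mutants. With no filter these were 8 and 7, 0 and 1, 12 and 8, and 2 and 2, and the medians of the members were -0.12, -0.22, 0.04 and -0.30. With at least 1 CPM in at least 3 libraries they were 8 and 8 in PINCH1 mutants, 13 and 14 between the mutants and 2 and 2 in both. DESeq2 called 3 higher in PINCH1 mutants, 6 and 4 between the mutants and 2 higher in both. Lower calls in PINCH1 mutants were 1 with separate scaling and 0 with limma-voom and with only the groups compared, which also gave 0 lower in PINCH2 mutants and 5 higher between the mutants. Limma-voom gave 1 lower between the mutants. With 1 library left out, PINCH1 mutants had 1 to 4 higher and 0 to 5 lower entries and member medians of -0.62 to -0.20, PINCH2 mutants 0 to 1 lower, the mutants against each other 2 to 5 higher, 1 to 4 lower and 0 to 1 members, and both mutants 1 to 2 higher and medians of -0.60 to -0.18.

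With the replicate block, edgeR called 2 higher in PINCH1 mutants and 0 lower in PINCH2 mutants, and the member medians were -0.40, -0.43, -0.03 and -0.47. Same-numbered libraries correlated between -0.11 and 0.25 across entries in their deviations from the group means, and not every library correlated best with its own number, so the numbers were not taken as pairs. Of the members, 4 in PINCH1 and 5 in PINCH2 mutants changed sign under an alternative that kept all libraries, and 9 and 9 with a library left out. The causes of these changes were not tested. At this depth 22 of 47 members fell below the filter.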
